A study of Mus musculus with 5 samples.

Results

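The genes described here are 38 transcripts of the interferon response and of the MHC class I antigen pathway, measured by RNA sequencing in mouse epidermal cells. They were taken by symbol from the 56691 genes of the count table, each through its Ensembl gene ID, and 36 of them passed the filter on low counts that left 18583 genes for testing. Ifit3 and Ifi44 did not pass it. The rule that picks the genes uses symbols and no measured value, but the set was proposed with earlier results of these data known.

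Cells were isolated from back skin of mice at day 28. The 2 Bulk libraries hold the whole population, labelled epidermal basal cells of wild-type genotype, and the 3 GFP libraries hold cells sorted for GFP and labelled as Lrig1 positive keratinocytes. The sources used here do not give the GFP construct, the gates, the strain or the sex, and neither group is described as treated. Sample titles carry the number 4143 for Bulk 1 and GFP 1, 4145 for Bulk 2 and GFP 2, and 4146 for GFP 3. Nothing in the labels states whether replicates are separate animals, so p-values measure the spread between these libraries, which may be in part technical. In the fit with the title number as a block, used below, that spread is mostly one pooled over genes.

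Interferons are secreted proteins that bind receptors on the cell surface and act through JAK kinases and STAT proteins. Type I and type III interferons act through a complex that holds STAT2 and IRF9 and binds the interferon-stimulated response element (ISRE), while interferon gamma acts through the gamma-activated site (GAS). The induced genes encode antiviral effectors, sensors of foreign nucleic acid, guanylate binding proteins and the machinery that cuts proteins into peptides, carries the peptides into the endoplasmic reticulum and loads them onto MHC class I. Keratinocytes express many of these genes at a basal level without infection.

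The promoters of 4 members are shown because their genes had the smallest p among the members whose promoter window held an ISRE core. The letters searched were GAAANNGAA for the ISRE and TTCNNNGAA for the GAS, on both strands, with overlapping matches kept, in windows of 300 bases from RefSeq on GRCm38.p6. The ISRE core stood in the window of 15 of the 29 members in that table (51.7%), and in 9.76% of all 27025 genes. The GAS stood in 9 of the 29 (31%) and in 9.55% of all genes. Each sequence below runs 5′ to 3′ from 250 bases before the annotated start to 30 bases after it on the strand of the gene, with the ISRE core in capitals, in the orientation in which it was found.
Gbp2: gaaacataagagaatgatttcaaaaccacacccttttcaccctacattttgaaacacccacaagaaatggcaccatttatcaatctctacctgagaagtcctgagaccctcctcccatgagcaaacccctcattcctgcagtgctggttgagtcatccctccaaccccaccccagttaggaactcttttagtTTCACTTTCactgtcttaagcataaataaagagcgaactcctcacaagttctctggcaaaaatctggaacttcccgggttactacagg
Ifitm3: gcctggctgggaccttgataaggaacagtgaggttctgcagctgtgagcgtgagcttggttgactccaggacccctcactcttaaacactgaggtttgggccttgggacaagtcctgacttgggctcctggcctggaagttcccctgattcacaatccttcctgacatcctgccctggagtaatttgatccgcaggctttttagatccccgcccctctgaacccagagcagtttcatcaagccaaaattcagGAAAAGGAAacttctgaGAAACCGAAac
B2m: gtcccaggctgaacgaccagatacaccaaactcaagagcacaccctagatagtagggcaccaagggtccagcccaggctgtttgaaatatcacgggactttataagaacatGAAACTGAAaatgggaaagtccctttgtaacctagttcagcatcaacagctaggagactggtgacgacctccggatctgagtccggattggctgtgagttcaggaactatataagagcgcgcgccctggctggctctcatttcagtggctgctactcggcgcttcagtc
Rsad2: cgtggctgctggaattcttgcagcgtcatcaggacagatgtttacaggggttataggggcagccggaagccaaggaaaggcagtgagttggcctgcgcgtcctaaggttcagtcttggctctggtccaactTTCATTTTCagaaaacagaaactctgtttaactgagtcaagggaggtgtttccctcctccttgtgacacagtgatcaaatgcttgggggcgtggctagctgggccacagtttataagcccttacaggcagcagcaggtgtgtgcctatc
The Gbp2 window is chr3:142620413-142620692 on the plus strand, with a core at position -58, counted from 0 at the first transcribed base. In Ifitm3 (chr7:141010715-141010994, minus strand) a pair of cores starts at positions 2 and 19, after the start site. B2m (chr2:122147437-122147716, plus strand) has a core at position -139 and Rsad2 (chr12:26456423-26456702, minus strand) at position -119. H2-K1, H2-D1, Tap1, Psmb9, Tapbp, Irf7, Irf9, Oasl2 and Xaf1 were in the table and held no match to the searched letters in this window. The H2-K1 and H2-D1 windows both hold ttcacttct, which resembles the ISRE core but does not match its letters. The windows of Tap1 and Psmb9 share 275 bases on opposite strands, so these genes are not separate cases. A match is a description of letters and not of a bound site, and lack of a match does not show that a promoter lacks such an element.

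Levels are given as CPM, counts scaled to a common library size with TMM factors, in this order: Bulk 1, Bulk 2, GFP 1, GFP 2, GFP 3. Library totals lay between 56829330 and 105887450 counts, so a count of 0 allows a level of up to 0.0283 to 0.0528 CPM. This limit is 3 counts of the total without TMM factors and covers counting error only. GFP 3 stood apart from the other libraries in Xist, with 53714 counts against 0 to 8, and Ddx3y, with 62 counts against 1750 to 4462. Xist is expressed from the inactive X chromosome of females and Ddx3y from the Y chromosome, so GFP 3 came from another animal than the other libraries, and the one library with a female pattern stood in the GFP group, with no Bulk library of its title number. Lrig1, the gene that names the sorted cells, was at 163 and 155 CPM in Bulk and at 210, 226 and 213 CPM in GFP.

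The members ranged from H2-D1, at up to 2523 CPM, to Ifit3 and Ifi44 near the limit of detection. MHC class I, B2m, Ifitm3 and the peptide transporter genes were abundant in both groups, while 7 tested members, among them Ifit1, Ifit2, Rsad2, Mx1 and Zbp1, averaged under 1 CPM.

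**Figure D1:**
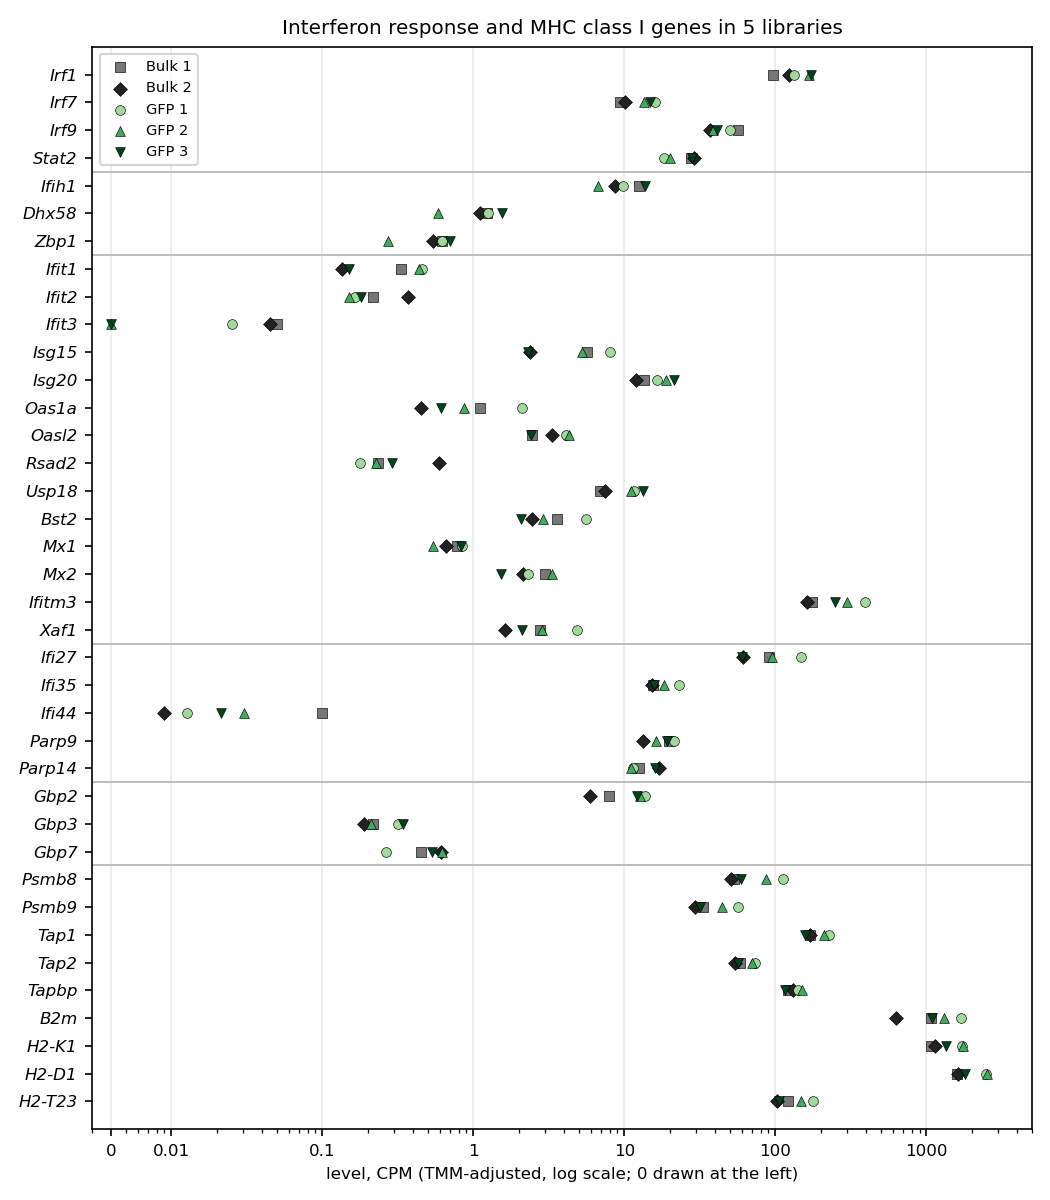
Level of each of the 38 genes in CPM (x axis, log scale) in the 2 Bulk libraries (grey and black) and the 3 GFP libraries (green), with lines between role groups and a level of 0 drawn at the left edge. The 9 genes of the antigen pathway lie at the bottom, from 29.6 CPM for Psmb9 in Bulk 2 to 2523 CPM for H2-D1 in GFP 2, while Ifit3 was at 0 in GFP 2 and GFP 3.

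With a group term alone, none of the 36 tested members was called higher or lower in GFP by edgeR's quasi-likelihood test at an adjusted p under 0.05. Over all tested genes 0.145% were called higher and 5.14% lower. At an unadjusted p under 0.05, 7 members were higher (19.4%, against 4.28% of all tested genes) and 0 lower (against 11.6%). Those 7 were Gbp2, Ifitm3, Usp18, Irf7, Isg20, Psmb8 and Irf1. DESeq2's Wald test called 3 members higher, Usp18, Ifitm3 and Gbp2, where it called 1.01% of all genes, and limma-voom called 0, where it called 0.199%. The log2 change was positive for 26 of the 36, with a median of 0.33, against a median of 0.05 over all tested genes.

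The title numbers were taken to name the animal, and a fit with this number as a block called 20 members higher and 1 lower. That is 55.6% and 2.78% of the members, against 16.4% higher and 19.7% lower of all tested genes. This fit rests on 2 pairs, has 1 residual degree of freedom and takes nothing from GFP 3. Its SE was nearly the same for different members, such as 0.1423 for Irf1, 0.1432 for Tap1, 0.1431 for Psmb8 and 0.1419 for Ifi27. The blocked p-values thus rest mostly on a spread pooled over genes and not on the 2 pairs of each gene. With a trend on transcript length and GC content also removed from each library, 18 of those 20 were still called higher and the same gene lower, against 16.9% and 14.6% of the genes in that fit. Over the alternatives, each member called in any of them had its lowest adjusted p in a blocked fit, and the highest adjusted p of each of the 36 lay between 0.545 and 0.999. GFP lay above Bulk in both pairs for 25 of the 36 (69.4%, against 38.6% of all tested genes).

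All 3 GFP libraries lay above both Bulk libraries for 11 members (30.6%, against 14.5% of all tested genes) and below both for 1 tested member, Ifit2 (2.78%, against 18.5%). The 11 were Irf1, Irf7, Isg20, Usp18, Ifitm3, Ifi35, Gbp2, Psmb8, B2m, H2-K1 and H2-D1. GFP 3 was nearest to Bulk for many members: the median log2 ratio over the tested members was 0.48 for GFP 1 over Bulk 1 and 0.40 for GFP 2 over Bulk 2, but 0.02 for GFP 3 over the Bulk mean. GFP 1 held the highest level of 18 of the 36 members (50%, against 25.5% of all tested genes).

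**Figure D2:**
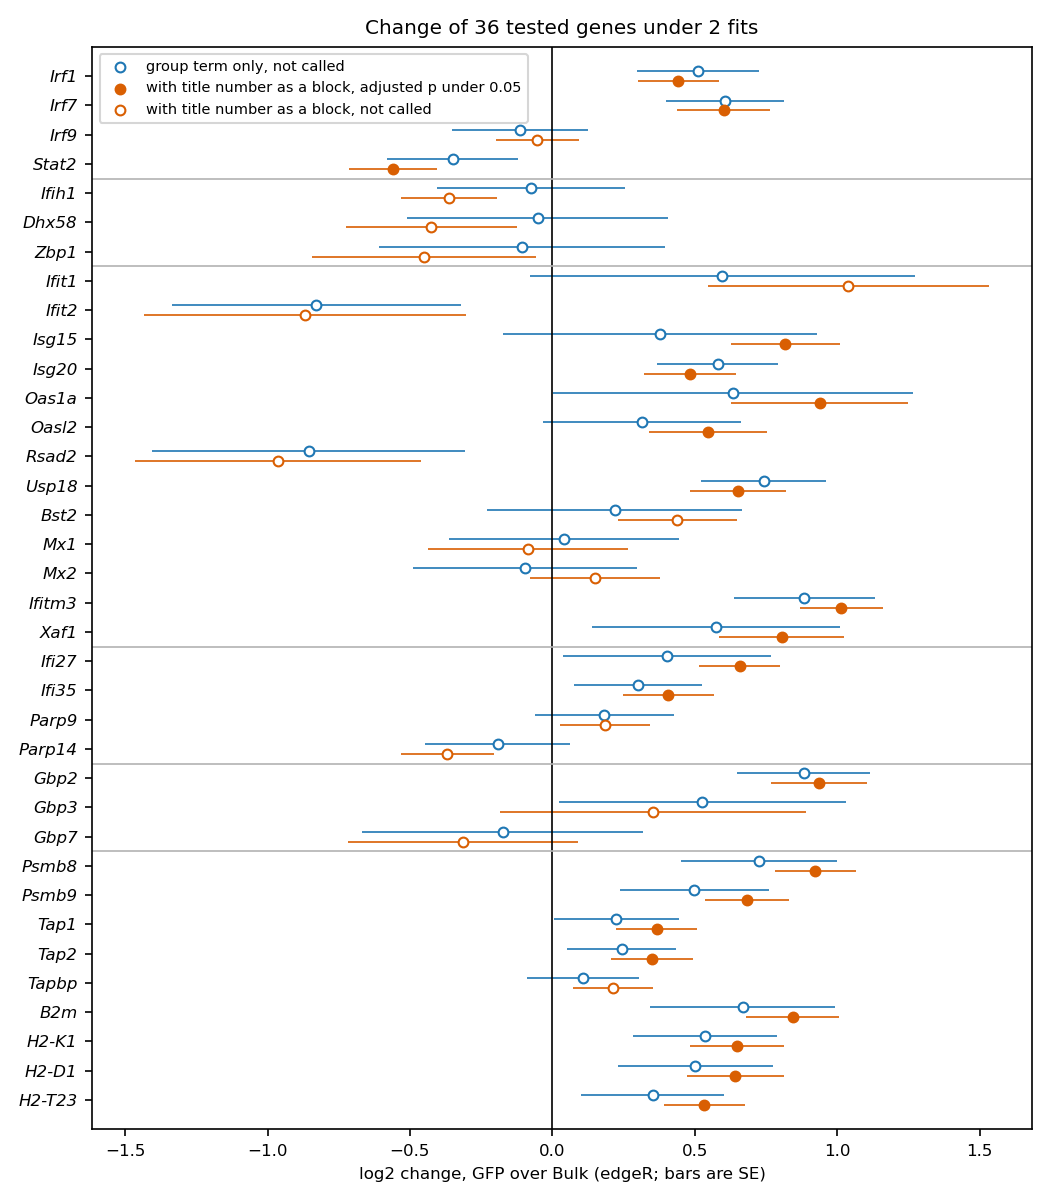
Log2 change of GFP over Bulk (x axis, with SE) for the 36 tested genes, in the fit with a group term alone (blue) and with the title number as a block (orange), with filled points where the adjusted p was under 0.05. No blue point is filled, and of the 21 filled orange points Stat2 alone lies below 0.

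Among the signal and transcription factors, Irf7 and Irf1 were higher in every GFP library than in either Bulk library, while Irf9 and Stat2 overlapped. Irf7, the factor that drives interferon alpha genes, was at 9.43, 10.03, 16.0, 13.6 and 14.8 CPM. Its log2 change was 0.61 ± 0.21 (SE), with an adjusted p of 0.186, and of 0.00134 in the blocked fit. The adjusted p over all 15 alternatives ran from that value to 0.73.

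Irf1, an early activator of interferon gamma targets and of MHC class I genes, was at 96.8, 123, 132, 167 and 172 CPM. GFP 1 lay close to Bulk 2. The log2 change was 0.51 ± 0.22 (SE), with an adjusted p of 0.3, of 0.00778 with the block and up to 0.669 over the alternatives. Irf1 had the highest level per kilobase of transcript in this group, 51.5 CPM per kb in Bulk and 73.4 in GFP. Kilobases here and below are those of the longest annotated transcript.

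Stat2, a subunit of the ISRE-binding complex, was at 27.8, 28.9, 18.4, 20.1 and 28.2 CPM. GFP 1 and GFP 2 were below Bulk and GFP 3 was not. The log2 change was -0.35 ± 0.23 (SE, adjusted p = 0.529), and -0.56 ± 0.15 with the block (adjusted p = 0.00146), which made Stat2 the member called lower there. Over the alternatives its adjusted p reached 0.998. Irf9, the DNA-binding part of the same complex, was at 56.9, 36.7, 50.4, 38.6 and 40.9 CPM, high in the 2 libraries numbered 4143 and low in the others. Its log2 change of -0.11 was not called in any of the fits and turned to 0.24 without Bulk 1.

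The nucleic acid sensors did not separate the groups. Ifih1 encodes MDA5, a sensor of long double-stranded RNA, and was at 12.6, 8.69, 9.81, 6.74 and 13.7 CPM. Dhx58, which encodes the related helicase LGP2, was at 1.24, 1.11, 1.25, 0.588 and 1.54 CPM. Zbp1, a sensor of Z-form nucleic acid, was at 0.618, 0.538, 0.620, 0.271 and 0.706 CPM. All 3 were lowest in GFP 2 and highest in GFP 3, so the spread within GFP covered both Bulk libraries. Their log2 changes lay between -0.11 and -0.05 with adjusted p from 0.936 to 0.971. Without GFP 2 they were 0.15 for Ifih1, 0.25 for Dhx58 and 0.20 for Zbp1, and none was called with the block. Ifih1 had the highest level per kilobase of the 3, 1.94 CPM per kb in Bulk and 1.84 in GFP.

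Of the 14 antiviral effectors and modifiers, 13 were tested and 10 had a positive log2 change (76.9%, against 54.4% of all tested genes). With the block 7 were called higher (53.8%, against 16.4% of all tested genes). The summed level of the group was 217, 195, 448, 348 and 294 CPM, of which most was Ifitm3. Ifitm3 encodes a membrane protein that hinders entry of enveloped viruses and was at 176, 162, 391, 297 and 247 CPM. Every GFP library was above both Bulk libraries, and GFP 1 was the highest. The log2 change was 0.88 ± 0.25 (SE, adjusted p = 0.102) and 1.01 ± 0.15 with the block (adjusted p = 1.16e-10). Once the length and GC trend was also removed, the blocked adjusted p of Ifitm3 was 3.67e-04. Its adjusted p was also under the threshold without GFP 3 (0.0329), with no filter on low counts (0.0167) and by DESeq2 (0.016), and reached 0.657 without Bulk 2. Per kilobase Ifitm3 was at 249 CPM in Bulk and 459.9 in GFP. Of the 50-base runs in its transcript 10% occurred in other annotated transcripts, led by Gm7676, so its counts depend in part on how shared reads were assigned.

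Usp18, the protease that removes ISG15 from proteins and restrains the type I interferon receptor, was at 6.85, 7.46, 11.5, 10.99 and 13.4 CPM. The groups did not overlap, and GFP 3 was the highest library. Its log2 change was 0.74 ± 0.22 (SE), with an adjusted p of 0.125, of 0.0224 by DESeq2, of 6.33e-04 with the block and up to 0.545 over the alternatives. Isg20, an exonuclease that degrades viral RNA, was at 13.5, 12.0, 16.6, 19.0 and 21.5 CPM, also without overlap. Its log2 change was 0.58 ± 0.21 (SE, adjusted p = 0.222), with an adjusted p of 0.0103 in the blocked fit, of 0.0772 once the length and GC trend was also removed, and up to 0.941 over the alternatives.

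The remaining members of this group were low, and all but Ifit2 and the untested Ifit3 overlapped between the groups. Isg15, a ubiquitin-like modifier, was at 5.67, 2.39, 8.08, 5.26 and 2.29 CPM, with both libraries numbered 4143 above those numbered 4145 and GFP 3 the lowest. Within each pair GFP was the higher library, and the blocked log2 change was 0.82 ± 0.19 (SE, adjusted p = 1.41e-04). Without pairing the log2 change was 0.38 ± 0.55 (adjusted p = 0.791), and it was -0.13 without Bulk 2 and -0.09 without GFP 1. Oas1a, Oasl2 and Xaf1, which encode a pair of oligoadenylate synthetase family proteins and an apoptosis regulator, were also called with the block, at levels between 0.448 and 4.82 CPM. Oas1a shared 57.6% of its 50-base runs with other transcripts, mostly Oas1g, and its log2 change was -0.05 without GFP 1.

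Ifit1, Ifit2, Rsad2, Bst2, Mx1 and Mx2 were not called in any fit and lay between 0.135 and 5.58 CPM. These encode binders of viral RNA, an enzyme that makes a chain-terminating nucleotide, a tether of budding virus and GTPases that trap viral capsids. Ifit2 was at 0.217, 0.368, 0.165, 0.151 and 0.182 CPM, lower in every GFP library, with a log2 change of -0.83 ± 0.51 (SE, adjusted p = 0.501). For Ifit3 the reads numbered 3, 5, 2, 0 and 0 in the 5 libraries, which gives no comparison, and 51.2% of its 50-base runs are shared with Ifit3b. Mx1 had a log2 change of 0.04 that was -0.07 when libraries were scaled by their size alone and -0.09 with the block.

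Of the 5 other induced genes, Ifi44 was at 0.00897 to 0.1003 CPM and was not tested. Ifi27, a small membrane protein of the same response, was the most abundant at 91.0, 61.2, 147, 94.4 and 60.1 CPM. The GFP libraries ran from below both Bulk libraries to above both, and the log2 change was 0.40 ± 0.36 (SE, adjusted p = 0.653) against 0.66 ± 0.14 with the block (adjusted p = 3.11e-05). Ifi35 was at 15.6, 15.2, 22.9, 18.2 and 15.8 CPM, with GFP 3 barely above Bulk 1, and its log2 change of 0.30 ± 0.22 (SE, adjusted p = 0.579) was called with the block (adjusted p = 0.0332) but not after the length and GC trend was removed (adjusted p = 0.116). Parp14, an ADP-ribosyltransferase, was at 12.6, 16.9, 11.5, 11.1 and 16.1 CPM and overlapped between groups, as did Parp9, its partner family member, at 13.4 to 21.2 CPM. Neither was called in any fit, and without Bulk 2 the log2 change of Parp14 went from -0.19 to 0.03 and that of Parp9 from 0.18 to -0.08.

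Gbp2 had the smallest unadjusted p of all members. It encodes an interferon-induced GTPase that attacks the vacuoles of intracellular pathogens and was at 7.96, 5.91, 13.6, 12.6 and 12.1 CPM. The 3 GFP libraries lay close together and all above both Bulk libraries. The log2 change was 0.88 ± 0.23 (SE, adjusted p = 0.0825) and 0.94 ± 0.17 with the block (adjusted p = 3.76e-07). Its adjusted p was 0.00737 by DESeq2 and 0.0476 with no filter on low counts, and reached 0.691 without Bulk 2. Gbp2 was also the most abundant of the 3 per kilobase, 2.76 CPM per kb in Bulk and 5.07 in GFP.

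The other two guanylate binding proteins were near the limit of what the libraries resolve. Gbp3 was at 0.217, 0.188, 0.316, 0.211 and 0.343 CPM. Gbp7 was at 0.451, 0.610, 0.266, 0.618 and 0.535 CPM. Neither separated the groups or was called in any fit, and the log2 change of Gbp7 (-0.17) turned positive without Bulk 2 (0.05) or without GFP 1 (0.11).

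All 9 genes of antigen processing and MHC class I had a positive log2 change (median 0.50), against 54.4% of all tested genes. Of them 8, all but Tapbp, were called higher with the block (88.9%, against 16.4% of all tested genes). In both pairs GFP was above Bulk for all 9, against 38.6% of all tested genes. GFP 3 was mixed: it was above both Bulk libraries for Psmb8, B2m, H2-K1 and H2-D1 and not for the other five, and its log2 ratio to the Bulk mean had a median of 0.01 and reached 0.35 for B2m. The summed level was 4300, 3923, 6670, 6277 and 4767 CPM. None of the 9 was called with a group term alone, where their adjusted p lay between 0.241 and 0.840, and without Bulk 2 all were at 0.887 or above.

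The MHC class I light chain gene B2m and the classical heavy chain genes H2-K1 and H2-D1 were the most abundant members. B2m, the light chain, was at 1078, 631, 1683, 1302 and 1088 CPM. Its lowest GFP library was level with Bulk 1, and the log2 change was 0.67 ± 0.33 (SE, adjusted p = 0.383), or 0.84 ± 0.16 with the block (adjusted p = 2.65e-06). Per kilobase B2m was the most abundant of the group, at 994 CPM in Bulk and 1579 in GFP. H2-K1, the classical K heavy chain, was at 1077, 1137, 1724, 1741 and 1347 CPM, with no overlap. Its log2 change was 0.54 ± 0.25 (SE, adjusted p = 0.365), and its blocked adjusted p was 5.37e-04. H2-D1, the classical D heavy chain, was at 1588, 1616, 2476, 2523 and 1808 CPM, again without overlap. Its log2 change was 0.50 ± 0.27 (SE, adjusted p = 0.440), and its blocked adjusted p was 9.04e-04.

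The heavy chains kept nearly the same proportion in every library, with a ratio of H2-K1 to H2-D1 per kilobase of 0.760, 0.790, 0.781, 0.774 and 0.836. The ratio of B2m to H2-K1 per kilobase was less even, at 2.18, 1.21, 2.13, 1.63 and 1.76, with Bulk 2 the lowest. H2-T23, which encodes the nonclassical molecule Qa-1 that presents leader peptides to NK cell receptors, was at 121.5, 103, 177, 148 and 105 CPM. GFP 3 lay between the Bulk libraries, and the log2 change was 0.35 ± 0.25 (SE, adjusted p = 0.562), or 0.53 ± 0.14 with the block (adjusted p = 9.98e-04). Shared 50-base runs made up 8.11% of H2-K1, 14.3% of H2-D1 and 15% of H2-T23, so reads of this family may be split between genes.

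Psmb8 and Psmb9 encode the immunoproteasome subunits that replace the constitutive subunits of the proteasome. Psmb8 was at 53.2, 50.5, 112, 86.3 and 58.9 CPM, with GFP 1 the highest and GFP 3 close to Bulk. The log2 change was 0.73 ± 0.27 (SE, adjusted p = 0.241) and 0.92 ± 0.14 with the block (adjusted p = 2.22e-09), and it was also called without GFP 3 (adjusted p = 0.0332). Psmb9 was at 33.1, 29.6, 56.6, 44.7 and 31.6 CPM, with GFP 3 inside the Bulk range, a log2 change of 0.50 ± 0.26 (SE, adjusted p = 0.421) and a blocked adjusted p of 3.48e-05.

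The constitutive counterparts were high in the same libraries. Psmb5, Psmb6 and Psmb7 summed to 239, 216, 374, 298 and 185 CPM, and all 3 were called higher with the block, against none with a group term alone. Over all tested genes 16.4% were called higher with the block. The ratio of Psmb8 to Psmb5 per kilobase was 0.942 and 0.938 in Bulk and 1.35, 1.29 and 1.41 in GFP, and the groups did not overlap. For Psmb9 over Psmb6 it was 0.0900 and 0.0814 against 0.0934, 0.0920 and 0.103. For Psmb10, the remaining immunoproteasome subunit, over Psmb7 the ratio was 0.306 and 0.432 against 0.415, 0.375 and 0.451, with overlap. The size of these ratios depends on the use of the longest annotated transcript, while their order among libraries does not. These ratios carry no test.

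Tap1 and Tap2 encode the transporter that brings peptides into the endoplasmic reticulum, and Tapbp encodes tapasin, which loads them. Tap1 was at 170.1, 170.2, 228, 211 and 157 CPM. Tap2 was at 58.3, 53.9, 73.5, 69.5 and 56.3 CPM. Tapbp was at 121, 131, 141, 151 and 115 CPM. In all 3 GFP 3 lay within or below the Bulk range and the other GFP libraries above it. The log2 changes were 0.22 ± 0.22, 0.24 ± 0.19 and 0.11 ± 0.20 (SE), with adjusted p of 0.678, 0.602 and 0.840, and blocked adjusted p of 0.0324, 0.0412 and 0.245. The ratio of Tap1 to Tap2 per kilobase stayed between 2.46 and 2.78. Tap1 and Psmb9 overlap in exons on opposite strands, and strandedness is not given in the sources used here, so reads from the overlap cannot be assigned to either.

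Other genes of the pathway are given from lists of the same kind. The 11 interferon ligand genes were at or near 0: 5 had no count in any library, 10 had none in at least 1, and Ifnk, the interferon of keratinocytes, was the tested one at 0.0334, 0.188, 0.241, 0.317 and 0.107 CPM. Ifng, the interferon of T and NK cells, was at 0.0836 and 0.332 CPM in Bulk and at 0.0127, 0 and 0 in GFP and was not tested. Of 19 receptor and JAK-STAT genes none was called with a group term alone and 5 were called higher with the block (26.3%, against 16.4% of all tested genes). Socs1, an inhibitor of JAK kinases, had the smallest p, at 17.9, 13.2, 28.6, 24.6 and 24.1 CPM (log2 change 0.73 ± 0.22 (SE), adjusted p = 0.130, blocked adjusted p = 5.69e-06).

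Of 13 tested sensing genes, Tmem173, which encodes STING, was called lower, at 1.35 and 1.88 CPM in Bulk and 0.481, 0.528 and 0.2996 in GFP (log2 change -1.90 ± 0.41 (SE), adjusted p = 0.0363). Of 43 tested further interferon-induced genes 7 were called lower (Gbp4, Gbp8, Sp100, Gbp9, Slfn5, Trim30a and Lgals3bp) and 0 higher, by edgeR's quasi-likelihood test. That is 16.3% lower, against 5.14% of all tested genes. With the block 10 were higher (23.3%, against 16.4%) and 13 lower (30.2%, against 19.7%). The log2 change was positive for 22 of the 43 (51.2%, against 54.4% of all tested genes), with a median of 0.01. This list thus did not share the upward shift of the members, but it was also lower in level. Its median level was 0.998 CPM, against 13.2 CPM for the tested members. Gbp4, another guanylate binding protein, was at 0.969 and 1.54 CPM in Bulk and 0.127, 0.0302 and 0.150 in GFP (log2 change -3.57 ± 0.60 (SE), adjusted p = 0.0126). Gbp8 and Sp100 followed with log2 changes of -3.23 and -1.66. Gbp9, Slfn5, Trim30a and Lgals3bp were named after their values were seen.

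Of 22 further class I pathway genes none was called with a group term alone. With the block 10 were higher (45.5%, against 16.4% of all tested genes) and 2, Nlrc5 and Lnpep, lower (9.09%, against 19.7%). Nlrc5, the transactivator of MHC class I genes, was at 111, 117, 70.5, 94.7 and 125.6 CPM, with GFP 1 and GFP 2 below Bulk and GFP 3 above it. H2-Q10, H2-Q4 and H2-M3, further class I heavy chains, had the smallest p, with log2 changes of 0.56, 0.51 and 0.62 and adjusted p of 0.270, 0.275 and 0.294. All 3 were called higher with the block (adjusted p = 6.67e-04, 2.40e-04 and 1.85e-04).

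Markers of other cell types differed strongly between the same libraries. Over all tested genes 5.14% were called lower with a group term alone. Of 6 general leukocyte markers 5 were called lower in GFP, and their sum was 62.0, 62.2, 6.77, 4.03 and 8.56 CPM. Ptprc (CD45) had a log2 change of -4.28 ± 0.60 (SE, adjusted p = 0.00502). All 9 T cell markers were lower, with sums of 173, 156, 20.3, 12.7 and 15.8 CPM and Cd3e at a log2 change of -3.12 ± 0.30 (SE, adjusted p = 8.89e-04). Of 12 Langerhans and myeloid markers 10 were lower, among them Cd74 (log2 change -3.27 ± 0.36 (SE), adjusted p = 0.0017), while the whole list summed to 669, 659, 520, 584 and 337 CPM. Epcam, which keratinocytes also express, made up most of that sum in GFP but not in Bulk, at 304, 296, 439, 539 and 305.5 CPM. It was above Bulk in every GFP library (log2 change 0.51 ± 0.27 (SE), adjusted p = 0.430, blocked adjusted p = 2.69e-05). With the block 1 of the 12 was called higher and 11 lower. Without Epcam and Mfge8, which were not called with a group term alone, the list summed to 340, 342, 58.1, 31.8 and 21.5 CPM, a split made after the values were seen. All 4 tested NK markers were lower, with sums of 16.2, 14.0, 1.62, 0.573 and 1.37 CPM over the list. No leukocyte or T cell marker was at 0 in a library, while Ncr1, Klrb1c and Gzmb of the NK list and Lyz2 of the myeloid list were at 0 in at least 1 GFP library. In sorted or whole populations like these, fewer cells of a type and less RNA per cell cannot be told apart. Leukocytes also express many of the members, and the part of leukocyte RNA in the member levels was not tested.

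Markers of the epidermal layers differed too. Basal keratinocyte markers summed to 22120, 24910, 42880, 36850 and 33870 CPM, above Bulk in every GFP library. With a group term alone 0 of 8 were called, and with the block 5 were higher (62.5%, against 16.4% of all tested genes). Suprabasal markers summed to 22140, 17320, 8891, 12360 and 9038 CPM. Of the 8, 3 were called lower (37.5%, against 5.14% of all tested genes), led by Lor (log2 change -5.37 ± 0.26 (SE), adjusted p = 5.3e-05). Fibroblast markers summed to 147, 116, 130, 27.4 and 8.85 CPM, with GFP 1 the highest GFP library in this sum. Yet all 5 were below Bulk in both pairs, and 2 were called lower with a group term alone. The median log2 ratio of the 5 was -1.23 for GFP 1 over Bulk 1 and -2.14 for GFP 2 over Bulk 2. For GFP 3 over the Bulk mean it was -3.92. The part of these markers in the member levels was not tested.

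**Figure D3:**
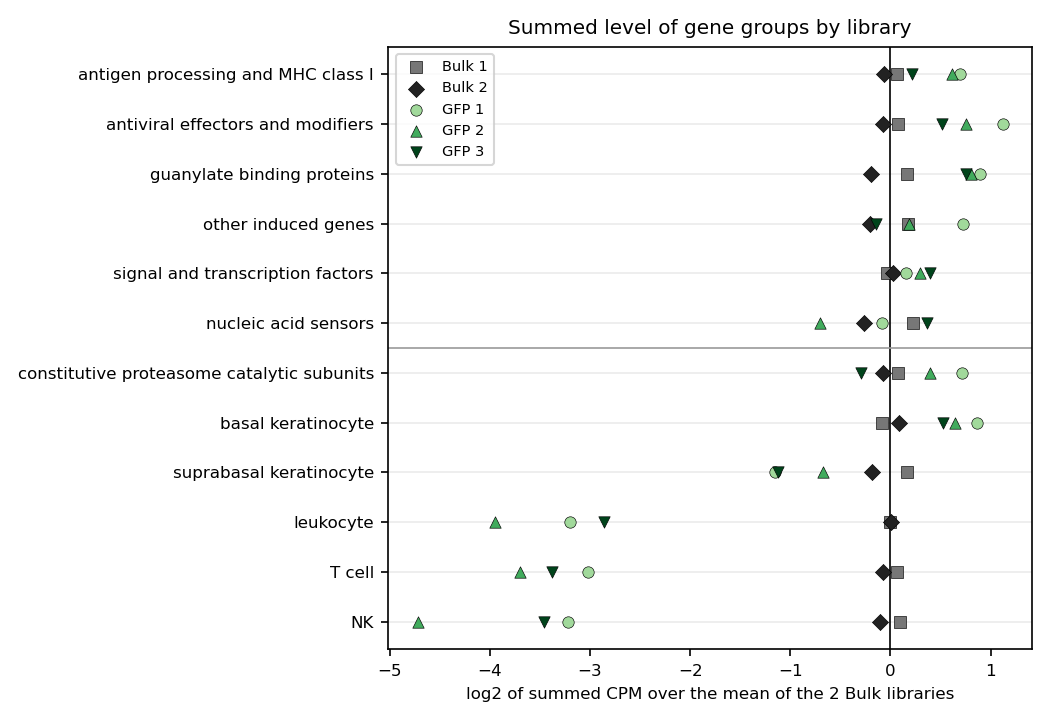
Log2 of the summed CPM of each gene group in each library over the mean of the 2 Bulk libraries (x axis), for the 6 role groups above the line and for comparison lists below it. The summed MHC class I group lies at 0.70 and 0.61 in GFP 1 and GFP 2 and at 0.21 in GFP 3, while leukocyte markers lie between -3.95 and -2.86 in the same libraries.

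Transcript length moved with the library ratios. Over all tested genes the Spearman correlation of a library ratio with length ran from -0.302 to 0.328 over the 10 pairs of libraries, across genes that are not independent replicates. The 18 shorter tested members (678 to 2642 bases) had a median log2 change of 0.52, with 16 positive, and the 18 longer (2656 to 7417 bases) one of 0.07, with 10 positive. With the trend on length and GC content removed, the medians were 0.53 and 0.09. Ifitm3, the shortest, went from 0.88 to 0.75 and Parp14, the longest, from -0.19 to 0.00.

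**Figure D4:**
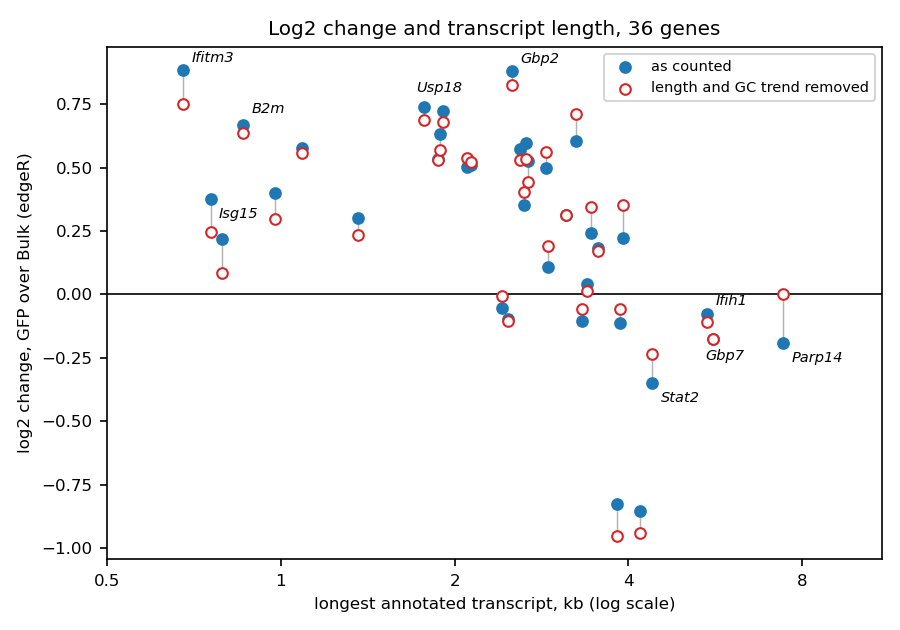
Log2 change of GFP over Bulk (y axis) against the length of the longest annotated transcript in kb (x axis, log scale) for the 36 tested genes, as counted (filled) and with the length and GC trend of each library removed (open), with a line joining the values of a gene. The positive values lie mostly among the transcripts up to 2642 bases, and most genes move little when the trend is removed.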

How the data were processed

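Messenger RNA was sequenced from 2 Bulk and 3 GFP libraries. The authors deposited whole-number counts per versioned Ensembl gene ID, without normalization. STAR and the build GRCm39 are named in the submitters' processing notes. The sources used here do not give the counting tool, the annotation or the strandedness. Symbols came from GENCODE M21 (GRCm38) by gene ID: 52073 of 56691 IDs matched and 4618 did not. Coordinates are those of the RefSeq promoter table on its own build.

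Counts were tested with edgeR 4.0.16 (R 4.3.3): filterByExpr (minimum count 10, minimum total 15), TMM, a group term, the two-sided quasi-likelihood test on 3 residual degrees of freedom, and Benjamini-Hochberg adjustment over all 18583 tested genes, threshold 0.05. The SE is the absolute log2 change divided by the square root of F. The script was tested on simulated data. Alternatives were other scalings, DESeq2 1.42.0, limma-voom (limma 3.58.1), other filters, a loess trend on length and GC content (span 0.3, 18107 genes with a length), the block and leaving out each library.

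Bulk 1 minus Bulk 2 correlated with GFP 1 minus GFP 2 across genes (Pearson r = 0.474, genes not being independent replicates), and on the assumption that a title number names an animal, which no label says, it entered the block. Libraries of 1 group were further apart than counting error allows (chi-square over its degrees of freedom 152 to 461). The members, lists and tests were chosen with earlier results of these data known. Named by rule were the 3 members of smallest p and the most abundant per kilobase in each role group, all 9 antigen pathway genes, and up to 3 genes of smallest p in other lists, with Ptprc, Cd3e and Cd74. Others were named after their values were seen. The limits given for a count of 0 cover counting error only, since the counts carry no molecular identifiers. The SE reflects the spread between libraries, which in the blocked fit is mostly pooled over genes. The result for 1 item is not reported here.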

Additional observations from a re-analysis of the deposited data

How the results depend on the processing

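Over all tested genes 982 were called. DESeq2's Wald test called 1498, leaving out the filter on low counts 1918, the replicate block 6692, the block after removal of the length and GC trend 5699, and leaving out 1 library 480 to 1205. Members called higher were 0, and 3, 2, 20 and 18 under those same 4 alternatives, and 0 to 2 when 1 library was left out. The 2 called without GFP 3 were Ifitm3 (adjusted p = 0.0329) and Psmb8 (adjusted p = 0.0332). Members called lower were 0, and 1 with the block, 1 with the block and the trend, and 0 to 0 without 1 library. Upper quartile scaling, DESeq2 size factors, library size alone, limma-voom, a filter of 1 CPM in 2 libraries and the trend alone called no member. Scaling by library size alone moved the median log2 change of all genes from 0.05 to -0.07 and that of the members from 0.33 to 0.19.

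Some log2 changes turned in sign. Most were near 0, but Isg15 (0.38) and Oas1a (0.63), both called higher with the block, were not. With the replicate block Mx1 was -0.0853 and Mx2 0.15, and with the trend removed too Mx1 was -0.0947, Mx2 0.12 and Irf9 0.0156. The trend alone gave Parp14 a value of 0.0019, and library size alone gave Mx1 -0.074 and Tapbp -0.0236. Leaving out 1 library in turn gave ranges that cross 0: -0.40 to 0.24 for Irf9, -0.37 to 0.22 for Ifih1, -0.35 to 0.25 for Dhx58, -0.37 to 0.20 for Zbp1, -0.13 to 1.13 for Isg15, -0.0518 to 1.41 for Oas1a, -0.28 to 0.53 for Bst2, -0.0876 to 0.22 for Mx1, -0.41 to 0.17 for Mx2, -0.0849 to 0.50 for Parp9, -0.39 to 0.0281 for Parp14 and -0.41 to 0.11 for Gbp7. The cause was not tested. A fit without 1 Bulk library assumes that the remaining one varies like the GFP libraries. Fewer than 100 counts stood behind Zbp1, Ifit1, Ifit2, Oas1a, Rsad2, Mx1, Gbp3 and Gbp7 in each Bulk library, and of these Oas1a was called with the block.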
